A study of Mus musculus with 32 samples.

Results

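The nuclear genes for the subunits of the 5 oxidative phosphorylation complexes were followed through 11 culture conditions of mouse ES cells. Members were gene rows whose symbol begins with Ndufa, Ndufb, Ndufc, Ndufs, Ndufv, Uqcr, Cox4i, Cox5, Cox6, Cox7, Cox8 or Atp5, or equals Sdha, Sdhb, Sdhc, Sdhd or Cyc1. Assembly factors named Ndufaf, 8 rows named as pseudogenes and 1 row with no read (Cox8b) were left out. Another 4 rows annotated as processed pseudogenes but not named so (Ndufa11b, Ndufs6b, Cox6c2 and Ndufb4c) were kept. This gave 89 of the 51826 genes in the table: 41 in complex I, 4 in complex II, 9 in complex III, 18 in complex IV and 17 in complex V. Complexes were assigned by symbol, so Ndufa4l2 and Ndufa4, which is read below with the complex IV isoforms, were counted in complex I throughout.

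The 32 libraries came from RGd2 cells, an ES cell line with a destabilised GFP reporter at the Rex1 locus, and from clonal knockout lines made in it with pairs of guide RNAs. RGd2 cells were sampled in 2i (inhibitors of MEK and GSK3), in 2i at passage 5 (2i-p5), in the GSK3 inhibitor CHIRON alone at passage 2 (CHp2), and 16 h or 72 h after transfer to N2B27 medium without inhibitors (N16h, N72h). Each of these 5 RGd2 groups held 2 parental libraries and 1 library of a clonal line. Etv5-KO and Rbpj-KO cells were sampled in 2i and at N16h, ER-dKO cells (Etv5 and Rbpj) in CHIRON at passage 5 (CHp5), and ETR-tKO cells (Etv5, Tcf3, the gene now called Tcf7l1, and Rbpj) in N2B27 at passage 5 (Np5). Every group had 3 libraries except Etv5-KO N16h, which had 2. Within a group each knockout library was a separate clonal line, and the Etv5-KO and Rbpj-KO lines at N16h were lines also sampled in 2i. All 2i and N16h cells had first been expanded with CHIRON and LIF and then held in 2i for 48 h, unlike the passaged groups. Libraries within a group were separate lines or cultures of 1 parental line, so the p-values below measure the spread between such libraries.

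Oxidative phosphorylation couples electron transport to ATP synthesis at the inner mitochondrial membrane. Complex I oxidises NADH, complex II oxidises succinate as part of the TCA cycle, complex III passes electrons to cytochrome c, complex IV reduces oxygen, and complex V uses the proton gradient to make ATP. A few core subunits of complexes I, III, IV and V are encoded by mitochondrial DNA and all others, including the whole of complex II, by the nucleus, so the complexes need products of both genomes. Naive ES cells are known to use both respiration and glycolysis, whereas primed cells lean on glycolysis.

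Values are counts scaled by the ERCC spike-in RNAs and divided by gene length (spike-in-scaled FPKM), so that they follow the RNA of a gene per unit of spike-in added. With a scaling of this kind, fewer cells and less RNA per cell cannot be told apart. Each contrast is therefore also given under TMM, a scaling by the bulk of the genes. A gene is said to be called when its Benjamini-Hochberg adjusted p in the edgeR quasi-likelihood test was below 0.05 and its mean FPKM was at least 1 in either group. Of the 89 members, 82 could be tested, or 81 in the comparisons of knockout with RGd2 cells in 2i. The other 7 were Cox4i2, Cox6a2, Cox7b2, Cox8c, Cox6c2, Ndufa11b and Ndufs6b, all near 0.

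Gene counts per library ran from 5986857 to 71439411 (median 29940141), and the shallowest library, RGd2 2i replicate 33, stood apart from the other RGd2 2i libraries in several members. RGd2 2i replicate 31 had the lowest spike-in share of all libraries, 0.991% beside 1.193% in replicate 32 and 1.393% in replicate 33. Its size factor was 1.12 by spike-ins and 1.43 by TMM. Counts of members called without it are given below, and the part of its spike-in share in the calls was not tested. Naive pluripotency markers summed to between 672 and 836 FPKM in the RGd2 2i and 2i-p5 libraries and to between 51.9 and 56 at N72h, where formative markers summed to between 500 and 515. Fibroblast or feeder markers summed to between 10.8 and 11.9 FPKM at N72h and to at most 1.84 in every other group. At N72h the sum came mostly from Thy1 (mean 5.29) and Acta2 (5.06), while Col1a1 (0.029) and Col1a2 (0.090) were near 0. The part of these markers in the results at N72h was not tested. Etv5 read 19.7 to 22.4 FPKM in Etv5-KO 2i libraries against 133 to 158 in RGd2 2i, and Tcf7l1 read 0.287 to 1.18 in ETR-tKO Np5 against 4.55 to 5.82 in RGd2 2i-p5. Rbpj read 2.96 to 3.78 FPKM in Rbpj-KO 2i against 12.1 to 15.4 in RGd2 2i. In ER-dKO CHp5 it read 3.45, 3.96 and 10.6, and in ETR-tKO Np5 4.72, 6.91 and 7.11. The 10.6 of the library labelled ER-dKO CHp5 replicate 12 lies above the RGd2 2i-p5 libraries (8.57 to 10.3) and below those of RGd2 CHp2 (11.6 to 13.1). The gene counts do not show which exons were deleted.

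Promoter letters are shown for 4 members, Cox7a1, Cox5a, Cox6a1 and Ndufb4, because their levels at N72h and in CHp2 and in the combined knockouts carry much of what follows. The sequences are RefSeq windows on GRCm38.p6, trimmed of annotated transcript, in the direction of transcription. Capitals mark matches to the NRF1 motif GCGCANGCG on either strand, a site for a factor known to act on many respiratory genes. The Cox7a1 window is chr7:30183921-30184143, plus strand. The Cox5a window is chr9:57520982-57521231, plus strand. The Cox6a1 window is chr5:115348982-115349129, minus strand, and the Ndufb4 window is chr16:37654454-37654618, minus strand.
Cox7a1: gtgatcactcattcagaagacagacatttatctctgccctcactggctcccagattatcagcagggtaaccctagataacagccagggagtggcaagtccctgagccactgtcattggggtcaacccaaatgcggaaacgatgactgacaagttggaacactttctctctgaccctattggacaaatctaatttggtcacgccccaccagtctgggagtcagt
Cox5a: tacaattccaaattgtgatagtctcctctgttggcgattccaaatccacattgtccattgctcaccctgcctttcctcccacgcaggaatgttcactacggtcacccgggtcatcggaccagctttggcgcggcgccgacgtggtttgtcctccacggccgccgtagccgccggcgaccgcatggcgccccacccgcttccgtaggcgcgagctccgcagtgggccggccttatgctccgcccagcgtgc
Cox6a1: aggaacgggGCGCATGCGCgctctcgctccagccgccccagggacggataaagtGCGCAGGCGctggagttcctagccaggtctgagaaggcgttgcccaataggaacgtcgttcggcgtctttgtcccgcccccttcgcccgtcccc
Ndufb4: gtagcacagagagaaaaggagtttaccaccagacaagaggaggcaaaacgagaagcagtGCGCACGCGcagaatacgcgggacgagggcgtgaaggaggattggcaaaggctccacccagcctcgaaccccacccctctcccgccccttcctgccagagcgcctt

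A promoter window of 300 bases was found for 66 of the 89 members. GCGCANGCG, searched on both strands, lay in the windows of 20 of them (30.3%), against 7.0% of all 27025 genes in the table. The ETS-family motif CCGGAAG lay in 16 (24.2%, against 9.9%) and the YY1 motif AAGATGG in 10 (15.2%, against 7.3%). At least 1 of these 3 was present in 38 members (57.6%, against 21.4%). NRF1 matches were spread over 8 complex I members, 7 of complex V, 2 each of complexes II and III, and Cox6a1 alone in complex IV, whereas YY1 matches were found in 7 members of complex I. Neither Cox7a1 nor Cox5a held any of the 3 motifs in the stretch printed. A match is a run of letters and was not tested as a binding site.

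The members differed widely in level. Counts were divided by the length of all annotated exons, 231 to 8086 bases among the members, so differences between genes depend partly on that length. Mean FPKM over all libraries ran from 1.60 to 494 among the 82 that reached 1, with a median of 34.4. The highest member was Atp5b, the catalytic beta subunit of ATP synthase, at 494. The highest in complex IV was Cox8a, a small membrane subunit, at 349, and the highest in complexes I, II and III were Ndufb9 (103), Sdhd (79.3), a membrane anchor of succinate dehydrogenase, and Uqcrb (103). Median levels by complex were 29.4 FPKM in complex I, 41.6 in complex II, 65.7 in complex III, 51.8 in complex IV and 37.7 in complex V. Across the 11 conditions most members moved little: the ratio of the highest to the lowest group mean had a median of 1.48, was under 1.5 in 45 members and over 2 in 9.

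All members together took about 1 in 100 gene counts, and the group mean of that share was lower in every condition outside 2i. It was 1.09% ± 0.0251 (SD, n = 3) in RGd2 2i-p5, 0.999% ± 0.0237 in 2i, 0.910% ± 0.0408 at N16h, 0.912% ± 0.0249 in CHp2 and 0.881% ± 0.0193 at N72h. ER-dKO CHp5 libraries gave 0.946% ± 0.0116 and ETR-tKO Np5 libraries 0.927% ± 0.0531. Neither N72h, CHp2, ER-dKO nor ETR-tKO libraries overlapped those of 2i-p5, nor N16h those of 2i, with an exact two-sided permutation p of 0.1 each, the smallest that 3 against 3 libraries allow. ETR-tKO did overlap RGd2 2i, with 0.9847% in ETR-tKO Np5 replicate 13 above the 0.9785% of RGd2 2i replicate 31. ER-dKO did overlap CHp2, and ETR-tKO overlapped N72h (exact permutation p = 0.2 each). When counts of the mitochondrial genome, histone genes and abundant small RNAs (Rn7sk, Rn7sl, Rmrp, Rpph1) were left out of the total, ETR-tKO libraries lay above N72h without overlap (1.15% against 1.05%, exact permutation p = 0.1), while ER-dKO still overlapped CHp2 (1.17% against 1.12%, exact permutation p = 0.2). In the single knockouts the share overlapped that of the RGd2 group in the same medium, with exact permutation p from 0.6 to 0.9.

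**Figure D1:**
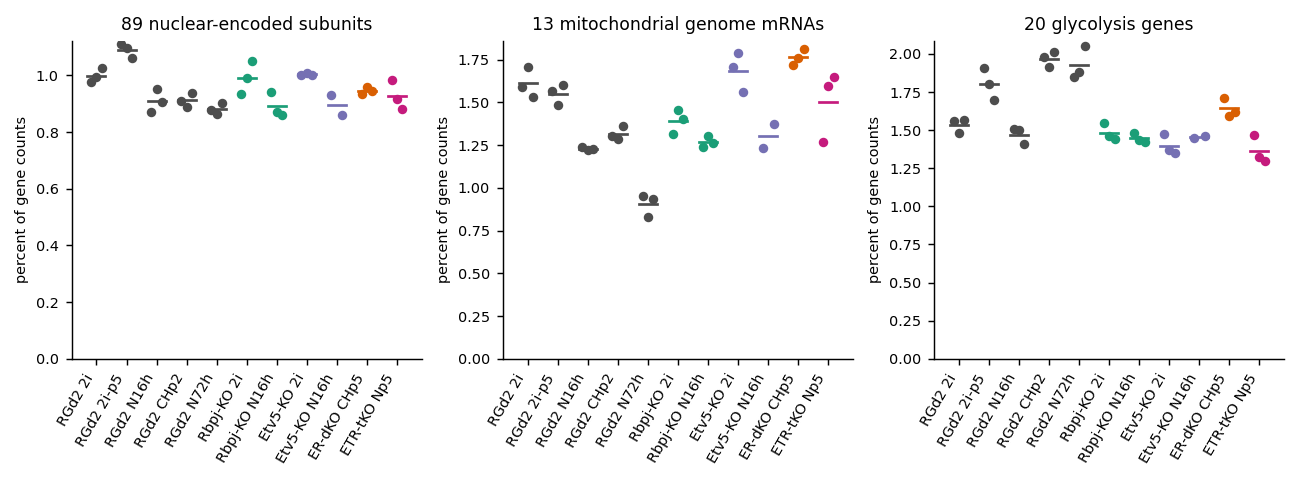
Percent of all gene counts in each library (points; lines are group means) that fell on the 89 nuclear subunits, on the 13 mRNAs of the mitochondrial genome and on 20 glycolysis genes, for the 11 conditions. The nuclear subunits are highest in RGd2 2i-p5 (mean 1.09%) and lowest at N72h (0.881%), and the mitochondrial mRNAs fall furthest at N72h (0.905%).

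At N16h all 4 genes of complex II were among the subunits with less RNA per spike-in. With spike-in scaling 49 of the 82 members tested were called lower and 0 higher in RGd2 N16h than in RGd2 2i, while under TMM 27 were lower and 3 higher, and a fit of only the libraries compared gave 15 lower. At an unadjusted p under 0.05 the same edgeR fit gave 1 higher, DESeq2 gave 0, and 1 was called without RGd2 2i replicate 32 or N16h replicate 24 or with the clonal line as a replicate block. Over all genes tested 37.4% were lower and 8.63% higher with spike-ins (24.4% and 22.5% under TMM). The median log2 fold change of the members was -0.34 against -0.23 for all genes with spike-ins, and -0.13 against 0.00 under TMM. All 4 complex II genes were called lower, as were 19 of 39 in complex I, 6 of 9 in complex III, 9 of 13 in complex IV and 11 of 17 in complex V. Without RGd2 2i replicate 31 the number called lower was 32.

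Sdhd read 114, 93.8 and 85.1 FPKM in the RGd2 2i libraries and 66.9, 72.1 and 68.6 at N16h. The groups did not overlap, and the fold change was -0.50 ± 0.098 on the log2 scale (SE, edgeR, Benjamini-Hochberg adjusted p = 6.71e-05). Sdhc (-0.41), which anchors the enzyme with Sdhd, the iron-sulphur subunit Sdhb (-0.41) and the flavoprotein Sdha (-0.38) fell by similar amounts, though Sdha overlapped between the groups and was not called under TMM. The largest falls were in complexes IV and V. Cox6b2, the testis form of a subunit that faces the intermembrane space, read 27.7, 21.8 and 22.4 in 2i and 13.7, 16.2 and 11.985 at N16h (log2 fold change -0.78 ± 0.15, edgeR, Benjamini-Hochberg adjusted p = 5.44e-05). Atp5c1, the gamma subunit that turns inside ATP synthase, read 245, 212 and 200 in 2i (the last from the shallow replicate 33) and 144, 144 and 130 at N16h. Its log2 fold change was -0.65 ± 0.088 (edgeR, Benjamini-Hochberg adjusted p = 9.57e-08) and no N16h library reached the lowest of 2i. Cox7a2l, known to hold complexes III and IV together in supercomplexes, fell by the same amount (-0.65 ± 0.097, edgeR, Benjamini-Hochberg adjusted p = 7.63e-07) from 73.8 to 95.9 FPKM in 2i to between 50.5 and 53.7 at N16h. These 3 genes were also called lower under TMM.

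After 72 h in N2B27 the body-wide complex IV isoforms Cox6a1, Cox6b1 and Cox8a were among the subunits with less RNA. With spike-in scaling 34 members were called lower and 4 higher in RGd2 N72h than in RGd2 2i-p5, and 50 lower and 3 higher under TMM. A fit of only the libraries compared gave 8 higher. Among all genes 22.9% were lower and 34.2% higher with spike-ins, and 34.3% and 31.1% under TMM. The members had a median log2 fold change of -0.21 where that of all genes was 0.09 (under TMM -0.34 and -0.04). In complex IV 9 of 13 members were called lower and none higher (median -0.47; 11 lower under TMM), against 11 lower and 3 higher of 39 in complex I (median -0.08; 19 and 3 under TMM). All 7 of the general, body-wide isoforms on a list of complex IV subunits (Cox4i1, Cox6a1, Cox6b1, Cox7a2, Cox7b, Cox8a) and Ndufa4 were called lower under both scalings, from -0.34 for Cox8a to -0.68 for Cox6a1. Of the 7 core subunits of complex I, which carry the flavin and the iron-sulphur clusters, Ndufv1 alone was called lower with spike-ins (-0.35) and 4 were under TMM. With RGd2 2i as the base, complex V had the lowest N72h median (-0.50, and -0.28 under TMM), followed by complex IV (-0.46 and -0.24). With that base complex I stood at -0.26 (-0.05 under TMM), complex II at -0.40 (-0.19) and complex III at -0.41 (-0.21).

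Cox7a1, the heart and muscle form of subunit VIIa, had the largest fall of any member. It read 12.8, 13.4 and 17.0 FPKM in RGd2 2i-p5 and 3.37, 3.38 and 2.95 at N72h. The groups lay far apart, with a log2 fold change of -2.18 ± 0.26 (edgeR, Benjamini-Hochberg adjusted p = 2.01e-09). Cox5a, a subunit on the matrix side of complex IV, read 42.5, 49.7 and 41.8 in 2i-p5 and 22.2, 26.3 and 24.1 at N72h (-0.89 ± 0.11, edgeR, Benjamini-Hochberg adjusted p = 3.2e-09). Cox6a1 fell from 221, 239 and 221 to 133, 143 and 149 (-0.68 ± 0.11, edgeR, Benjamini-Hochberg adjusted p = 2.21e-06). None of these 3 overlapped between the groups.

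In complex III Uqcr10, a small membrane subunit, read 109, 116 and 109 FPKM in 2i-p5 and 56.9, 51.6 and 50.8 at N72h (-1.07 ± 0.13, edgeR, Benjamini-Hochberg adjusted p = 2.78e-09). In complex I Ndufb4, an accessory subunit of the membrane arm, fell from 46.5, 53.3 and 53.1 to 27.4, 27.0 and 24.5 (-0.96 ± 0.11, edgeR, Benjamini-Hochberg adjusted p = 1.6e-09). In neither gene did an N72h library come near those of 2i-p5. Ndufb4c, annotated as a processed pseudogene, fell by 1.20 ± 0.32 on the log2 scale (edgeR, Benjamini-Hochberg adjusted p = 0.00158), but all of its 50-base words occur elsewhere in the transcripts, so its reads may belong to other genes. With RGd2 2i as the base it was not called (-0.24).

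A few members went the other way at N72h. Ndufa4l2, a paralogue of Ndufa4 known for its induction in low oxygen, read 3.16, 1.21 and 1.99 FPKM in 2i-p5 and 5.63, 3.69 and 8.98 at N72h (log2 fold change 1.60 ± 0.36, edgeR, Benjamini-Hochberg adjusted p = 2.52e-04). The N72h libraries were widely scattered, yet the groups did not overlap. Ndufa8 (0.49 ± 0.14, edgeR, Benjamini-Hochberg adjusted p = 0.00329) and Ndufa7 (0.45 ± 0.10, edgeR, Benjamini-Hochberg adjusted p = 2.83e-04), both accessory subunits of complex I, were called higher under both scalings. Sdhb was called higher with spike-ins alone (0.29). With 2i as the base Ndufa8 (0.10) and Sdhb (0.03) were not called.

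**Figure D2:**
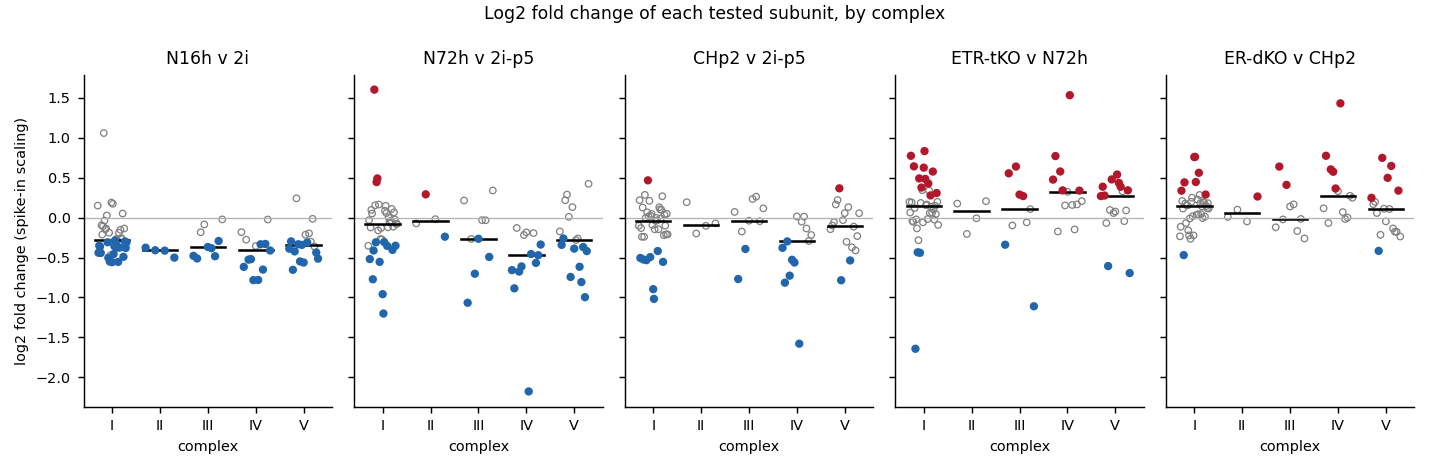
Log2 fold change, with spike-in scaling, of each tested subunit in complexes I to V for 5 comparisons (filled points: called higher in red or lower in blue; open grey points: not called; black lines: medians). Complex IV sits lowest at N72h against 2i-p5 (median -0.47) and highest in ETR-tKO Np5 against N72h (0.32). With RGd2 2i as the base, not drawn, complex V was lowest at N72h (-0.50, beside -0.46 in complex IV).

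RGd2 cells in CHIRON also had less RNA of Cox7a1, Ndufb4, Cox5a and Cox6a1 than those in 2i-p5. In RGd2 CHp2 against RGd2 2i-p5, 19 members were called lower and 2 higher, and 43 lower and 2 higher under TMM, where all genes gave 13.6% lower and 28.6% higher with spike-ins and 28.6% and 22.9% under TMM. Without RGd2 2i-p5 replicate 2 there were 5 called higher, and without 2i-p5 replicate 1 or CHp2 replicate 4 there was 1. In a fit of only the libraries compared 6 were higher and in DESeq2 4. The median of the members was -0.10 against 0.12 for all genes (TMM -0.27 against -0.05). Complex IV gave 7 lower of 13 (median -0.30), complex I 8 lower and 1 higher of 39, complex V 2 lower and 1 higher, complex III 2 lower and complex II none. CHp2 and N72h were both read against the same 2i-p5 libraries, so their changes share a base. With RGd2 2i as the base, the CHp2 median in complex IV was -0.16 (-0.002 under TMM). It was -0.21 (-0.04) in complex I, -0.44 (-0.27) in complex II, -0.23 (-0.05) in complex III and -0.26 (-0.08) in complex V. Naive markers summed to between 256 and 290 FPKM in CHp2 against 672 to 721 in 2i-p5. Mesendoderm markers summed to between 70.5 and 74.2 against 8.81 to 10.2. That rise came from T (mean 66.8 against 5.1), while Eomes was lower (1.85 against 2.35). Mixl1, Gata4, Gata6 and Sox17 were at most 0.619 in CHp2. The part of these markers in the result was not tested.

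Cox7a1 read 7.22, 4.25 and 3.37 FPKM in CHp2, below all 3 libraries of 2i-p5 (-1.58 ± 0.26, edgeR, Benjamini-Hochberg adjusted p = 3.67e-06). Ndufb4 read 28.0, 28.7 and 25.5 (-0.90 ± 0.11, edgeR, Benjamini-Hochberg adjusted p = 1.94e-08), and Cox5a 29.1, 24.6 and 22.5 (-0.82 ± 0.11, edgeR, Benjamini-Hochberg adjusted p = 4.68e-08). Each of these groups was clear of the 2i-p5 range given above. Cox6a1 read 142, 137 and 132 (-0.73 ± 0.11, edgeR, Benjamini-Hochberg adjusted p = 1.1e-06). Atp5f1, the b subunit in the stalk of ATP synthase, was called higher (0.37 ± 0.11, edgeR, Benjamini-Hochberg adjusted p = 0.00688), and so was Ndufa8 (0.47 ± 0.14, edgeR, Benjamini-Hochberg adjusted p = 0.00808). With RGd2 2i as the base Atp5f1 was at -0.09 and neither was called. The call of Ndufa8 was lost without 2i-p5 replicate 1 (0.39) or CHp2 replicate 4 (0.40), and that of Ndufb4c (-1.02) without CHp2 replicate 5 (-0.78) or 6 (-0.89).

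The RGd2 cultures in 2i differed from each other. Between RGd2 2i-p5 and RGd2 2i, 23 members were called lower and 6 higher with spike-ins, but 1 lower and 28 higher under TMM, so the direction turned with the scaling, and 3 were lower in a fit of only the libraries compared. All genes gave 49.4% lower and 2.89% higher with spike-ins and 11.5% and 14.5% under TMM. The median of all genes was -0.35 with spike-ins and 0.00 under TMM, while that of the members was -0.16 and 0.20. Complex IV stood highest relative to other genes, at a median of 0.01 with spike-ins and 0.34 under TMM, with 9 of 13 called higher in the latter. Without RGd2 2i replicate 31 the number called lower was 11, and without replicate 33 it was 35.

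Atp5g1, Ndufb3 and Ndufa4l2 kept their direction under both scalings in that contrast. Atp5g1, a gene for subunit c of the ATP synthase rotor, read 62.4, 50.8 and 54.1 FPKM in 2i and 32.5, 39.0 and 35.0 in 2i-p5 (-0.65 ± 0.11, edgeR, Benjamini-Hochberg adjusted p = 1.13e-05). Ndufb3, an accessory subunit of complex I, read 27.9, 31.5 and 23.5 in 2i and 40.2, 47.985 and 44.3 in 2i-p5 (0.66 ± 0.17, edgeR, Benjamini-Hochberg adjusted p = 0.00229). Neither overlapped between the groups. Ndufa4l2 was higher in 2i-p5 (1.97 ± 0.45, edgeR, Benjamini-Hochberg adjusted p = 7.92e-04), but its 2i libraries read 0.442, 0.701 and 0.142, so it entered the test through the group where it was high. Cyc1, the cytochrome c1 of complex III, fell from 108, 81.1 and 102 to 63.0, 71.1 and 62.0 and Atp5j by 0.57, and neither of these was called under TMM. Ndufb4c was higher (0.97), but the shallow 2i replicate 33 read 1.60 beside 21.7 and 18.2, and the call was lost without 2i-p5 replicate 2 (0.88).

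When RGd2 2i took the place of 2i-p5 as the base, 50 members were called lower and 4 higher at N72h (31 and 13 under TMM), and 35 lower and 3 higher in CHp2 (24 and 6). The share of all genes called with this base is not given, so these counts cannot be set against it. In RGd2 2i-p5 against RGd2 2i itself, 49.4% of all genes were lower with spike-ins. Of single genes, Cox7a1 (-1.85 at N72h, -1.25 in CHp2), Cox5a (-1.06 and -0.99), Atp5g1 (-1.39 and -1.43), Ndufb4 (-0.77 and -0.71) and Cox6a1 (-0.67 and -0.72) were called lower against either 2i culture.

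Few subunits were called in Rbpj-KO cells. In 2i, 1 of 81 members was called higher and 0 lower (4 and 2 under TMM), where all genes gave 5.24% higher and 6.12% lower (10.8% and 7.8% under TMM). At an unadjusted p under 0.05 edgeR gave 5 lower and DESeq2 called 2. The median of the members was -0.06 against -0.04 for all genes. The member called was Atp5e, the epsilon subunit of ATP synthase, at 6.28, 6.64 and 6.48 FPKM in RGd2 2i and 9.63, 8.37 and 9.82 in Rbpj-KO 2i (0.52 ± 0.14, edgeR, Benjamini-Hochberg adjusted p = 0.0139). Those groups did not overlap, and the call was lost without Rbpj-KO 2i replicate 30 (0.46) and in a fit of only the libraries compared (0.52), where 0 members were higher. Without the count filter 2 were. The count of members called higher was 3 without RGd2 2i replicate 31 or Rbpj-KO 2i replicate 28, 2 without RGd2 2i replicate 32 and 0 without Rbpj-KO 2i replicate 30, and the count called lower was 6 without RGd2 2i replicate 33, 2 without replicate 32 and 1 without Rbpj-KO 2i replicate 28.

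At N16h, 5 members were called higher and 0 lower in Rbpj-KO cells (0 lower also at an unadjusted p in edgeR and in DESeq2), but 2 higher and 6 lower under TMM, and 10 higher and 1 lower in a fit of only the libraries compared. Without the count filter 3 were higher. All genes gave 18.8% higher and 3.41% lower (14.5% and 11.3% under TMM). Cox7a1 read 6.35, 7.96 and 5.61 FPKM in RGd2 N16h and 13.2, 12.5 and 9.75 in Rbpj-KO N16h (0.82 ± 0.23, edgeR, Benjamini-Hochberg adjusted p = 0.00908). Uqcrc2, a core protein of complex III, was higher by 0.41 ± 0.12 (edgeR, Benjamini-Hochberg adjusted p = 0.0107). Both were called under both scalings, and their groups did not overlap, but the call of Cox7a1 was lost without Rbpj-KO N16h replicate 19 (0.73) and that of Uqcrc2 without replicate 21 (0.35). Ndufs4, an accessory subunit whose loss causes Leigh syndrome, was higher by 0.32, a call that failed on leaving out any of 5 of the 6 libraries (0.26 to 0.34), without the count filter (0.32) and under TMM. The number called higher fell to between 1 and 3 without Rbpj-KO N16h replicates 19 (1), 20 or 21 (2 each) or RGd2 N16h replicates 22 (2) or 24 (3), and 1 member was called lower without Rbpj-KO N16h replicate 19.

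Etv5-KO cells in 2i had less RNA of Cyc1, the cytochrome c1 of complex III. With spike-ins 14 members were called lower and 2 higher than in RGd2 2i, a balance that turned under TMM to 4 lower and 11 higher. A fit of only the libraries compared gave 2 lower and 1 higher. All genes gave 27.9% lower and 6.14% higher with spike-ins and 14.6% and 18.3% under TMM, and medians were -0.13 for members against -0.20 for all genes (TMM 0.08 against 0.02). Cyc1 read 108, 81.1 and 102 FPKM in RGd2 2i and 69.4, 62.4 and 58.1 in Etv5-KO 2i (-0.61 ± 0.11, edgeR, Benjamini-Hochberg adjusted p = 5e-05). Uqcrfs1, the Rieske iron-sulphur protein, fell from 61.2, 51.8 and 61.1 to 42.8, 38.2 and 38.5 (-0.54 ± 0.11, edgeR, Benjamini-Hochberg adjusted p = 1.69e-04). Neither gene overlapped between the groups, and both were also called lower under TMM, as was Ndufab1, the mitochondrial acyl carrier protein (-0.55 ± 0.12, edgeR, Benjamini-Hochberg adjusted p = 7.15e-04). The call of Uqcrfs1 was lost in the fit of only the libraries compared (-0.52).

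Cox7a1 and Uqcrb went up in the same cells. Cox7a1 read 17.4, 18.3 and 18.0 FPKM in Etv5-KO 2i, above the RGd2 2i libraries at 11.9, 13.3 and 7.87 (0.63 ± 0.22, edgeR, Benjamini-Hochberg adjusted p = 0.031; 0.86 under TMM, adjusted p = 0.00554). Its call with spike-ins was lost without Etv5-KO 2i replicate 26 (0.61) or 27 (0.62) or RGd2 2i replicate 31 (0.66) or 33 (0.50). Uqcrb, a matrix-side subunit of complex III, was higher by 0.37 ± 0.13 (edgeR, Benjamini-Hochberg adjusted p = 0.0335), a call lost without Etv5-KO 2i replicate 26 (0.28) or RGd2 2i replicate 33 (0.21) and in the fit of only the libraries compared (0.40). The number called lower in this contrast was 6 without RGd2 2i replicate 31 and 29 without replicate 33. The number called higher was 0 without Etv5-KO 2i replicate 26 or RGd2 2i replicate 33 and 1 without Etv5-KO 2i replicate 27 or RGd2 2i replicate 31.

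At N16h the Etv5-KO balance lay on the other side with spike-ins, with 12 members higher and 0 lower (0 lower also at an unadjusted p in edgeR and in DESeq2), though under TMM 1 was higher and 5 lower. DESeq2 gave 19 higher and a fit of only the libraries compared 24. All genes gave 29.3% higher and 3.24% lower with spike-ins and 16.3% and 12.8% under TMM, with a median of 0.23 for all genes and 0.18 for members. Of the 12, 7 were in complex IV (median 0.33, 0.10 under TMM). Ndufv3, a small subunit beside the flavin site of complex I, was called under both scalings, with 16.4, 18.1 and 19.5 FPKM in RGd2 N16h and 25.5 and 26.4 in Etv5-KO N16h (0.53 ± 0.11, edgeR, Benjamini-Hochberg adjusted p = 4.07e-04). Cox7a1 (0.68) and Uqcr10 (0.46) were called with spike-ins and not under TMM. The call of Cox7a1 was lost without either Etv5-KO N16h library (0.57 and 0.79) or without RGd2 N16h replicate 22 (0.64) or 24 (0.59), and that of Uqcr10 without Etv5-KO N16h replicate 17 (0.32) or RGd2 N16h replicate 24 (0.39). The count of 12 fell to 1 without Etv5-KO N16h replicate 17 and to 4 without replicate 18 or RGd2 N16h replicate 22 or 24.

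The response to release from 2i, N16h against 2i, was compared directly between genotypes as an interaction. For Rbpj-KO 0 members differed in either direction under either scaling in edgeR, with 3 higher and 1 lower at an unadjusted p and 1 higher in DESeq2, against 3.79% of all genes higher and 0.238% lower with spike-ins and 2.57% and 1.22% under TMM, and without RGd2 2i replicate 33 there were 5 higher. For Etv5-KO, 24 members had a higher response and 0 a lower response with spike-ins (33 and 0 in DESeq2), where 36.7% of all genes were higher and 0.531% lower. Under TMM 0 members were called either way in edgeR (0 higher and 5 lower at an unadjusted p), with 8.47% of all genes higher and 4.79% lower. The median difference was 0.32 for members against 0.44 for all genes with spike-ins, and -0.13 against -0.02 under TMM. With the clonal line as a replicate block 12 members were called higher, without the count filter 10, and in a fit of only the libraries compared 3.

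The members with the largest interaction in Etv5-KO cells were Uqcrq (0.80, edgeR, Benjamini-Hochberg adjusted p = 0.0195), Cox6b2 (0.79, edgeR, Benjamini-Hochberg adjusted p = 0.00715) and Ndufab1 (0.65, edgeR, Benjamini-Hochberg adjusted p = 0.00805). Uqcrq, a small subunit of complex III, read 5.38, 4.92 and 5.17 FPKM in Etv5-KO 2i and 10.03 and 7.61 at N16h, where RGd2 cells read 8.18, 6.49 and 5.1104 in 2i and 6.29, 7.61 and 6.07 at N16h. The RGd2 libraries overlapped between the media and those of Etv5-KO did not. Its call was lost without Etv5-KO N16h replicate 17 (0.58) or RGd2 2i replicate 31 (0.61). The 24 members fell to 6 without Etv5-KO N16h replicate 18, 9 without replicate 17, 10 without RGd2 2i replicate 31, 11 without Etv5-KO 2i replicate 27 and 14 without replicate 26 or RGd2 N16h replicate 24, and rose to 42 without RGd2 2i replicate 33.

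ER-dKO cells in CHIRON had more RNA of Cox7a1, Cox5a, Ndufb4, Atp5g1 and Cox6a1 than RGd2 cells in CHIRON; the CHp2 libraries are those already read against 2i-p5. Against RGd2 CHp2, 20 members were called higher and 2 lower (21 and 6 under TMM), where all genes gave 28.3% higher and 21.3% lower (32.3% and 25.8% under TMM). Thus the share of members called higher, 24.4%, was below that of all genes, and the share called lower, 2.44%, further below. A fit of only the libraries compared gave 4 lower. Complex IV gave 5 of 13 higher (median 0.27), complex I 7 of 39 (0.15) and complex V 5 of 17 (0.11). Without the library labelled ER-dKO CHp5 replicate 12, 16 were higher and 2 lower. Without RGd2 CHp2 replicate 5, 12 were higher and 1 lower, and without CHp2 replicate 4 or ER-dKO CHp5 replicate 10 none was lower. ER-dKO cells were at passage 5 and RGd2 cells at passage 2, so genotype and passage cannot be told apart.

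Cox7a1 read 11.9, 13.2 and 14.3 FPKM in ER-dKO CHp5 against 7.22, 4.25 and 3.37 in CHp2 (1.43 ± 0.25, edgeR, Benjamini-Hochberg adjusted p = 9.09e-06). Cox5a read 40.02, 44.2 and 46.0 against 29.1, 24.6 and 22.5 (0.78 ± 0.11, edgeR, Benjamini-Hochberg adjusted p = 7.87e-08). Ndufb4 read 41.9, 46.7 and 50.7 against 28.0, 28.7 and 25.5 (0.76 ± 0.11, edgeR, Benjamini-Hochberg adjusted p = 3.42e-07). In all 3 genes every ER-dKO library lay above every CHp2 library, and under TMM they stayed called higher. Atp5g1 (0.75) and Cox6a1 (0.60) were also called higher under both scalings. Ndufa2 (-0.47) and Atp5e (-0.42) were called lower, but the call of Ndufa2 was lost without ER-dKO CHp5 replicate 10 (-0.39), CHp2 replicate 4 (-0.48) or CHp2 replicate 5 (-0.40), and that of Atp5e without ER-dKO CHp5 replicate 10 (-0.32) or CHp2 replicate 4 (-0.34).

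ETR-tKO cells in N2B27 had more RNA of Cox7a1, Cox5a and Ndufa11 and less of Ndufa4l2 and Uqcrq than RGd2 cells at N72h, again the libraries already read against 2i-p5. There 29 members were called higher and 7 lower (24 and 13 under TMM), and all genes gave 35.5% higher and 23.6% lower (33.0% and 33.4% under TMM). The members called higher again made up a share close to that of all genes (35.4%). Complex IV gave 6 of 13 higher and none lower (5 and 2 under TMM), complex V 8 higher and 2 lower of 17, complex I 11 and 3 of 39, complex III 4 and 2 of 9, and no complex II gene was called. ETR-tKO cells were at passage 5 in N2B27 and RGd2 cells at 72 h, so genotype and time in culture cannot be told apart.

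Cox7a1 read 13.9, 6.75 and 6.78 FPKM in ETR-tKO Np5 against 3.37, 3.38 and 2.95 at N72h (1.53 ± 0.25, edgeR, Benjamini-Hochberg adjusted p = 2.33e-06). Cox5a read 37.7, 42.6 and 43.4 against 22.2, 26.3 and 24.1 (0.77 ± 0.11, edgeR, Benjamini-Hochberg adjusted p = 6.15e-08). Ndufa11, a membrane-arm subunit of complex I, read 28.9, 28.0 and 24.1 against 15.7, 15.8 and 16.0 (0.78 ± 0.11, edgeR, Benjamini-Hochberg adjusted p = 6.9e-08). No library of ETR-tKO overlapped N72h in these genes, although ETR-tKO Np5 replicate 13 held much more Cox7a1 than the other two clones. Ndufa4l2 was lower, at 1.20, 2.69 and 2.16 against 5.63, 3.69 and 8.98 (-1.64 ± 0.34, edgeR, Benjamini-Hochberg adjusted p = 9.8e-05). Uqcrq was lower too, at 4.29, 3.99 and 3.81 against 6.87, 10.97 and 8.48 (-1.11 ± 0.18, edgeR, Benjamini-Hochberg adjusted p = 1.19e-06), as was Atp5s (-0.70 ± 0.18, edgeR, Benjamini-Hochberg adjusted p = 0.00131). These groups did not overlap. Ndufb4c was called higher with spike-ins (0.83) and not under TMM (0.71), and its call was lost without ETR-tKO Np5 replicate 13 (0.77) or 14 (0.78) or N72h replicate 7 (0.81) or 8 (0.82).

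**Figure D3:**
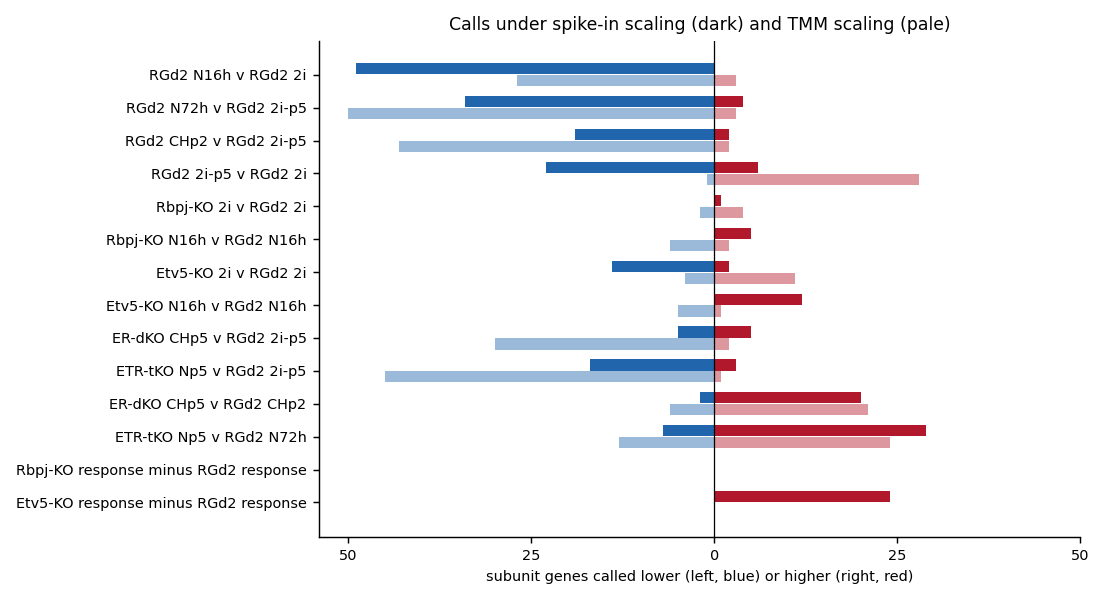
Number of members called higher (to the right) or lower (to the left) in each of the 14 comparisons, with spike-in scaling (dark) and TMM (pale). N16h against 2i has 49 lower with spike-ins, N72h against 2i-p5 has 50 lower under TMM, and 2i-p5 against 2i turns from 23 lower to 28 higher.

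The combined knockouts were also read against RGd2 2i-p5, where Ndufs4 was higher and Atp5mpl lower in both. For ER-dKO CHp5, 5 members were higher and 5 lower, but 2 higher and 30 lower under TMM and 15 higher and 10 lower in a fit of only the libraries compared, with all genes at 33.9% higher and 8.43% lower (21.8% and 20.5% under TMM). The median was 0.01 against 0.21 for all genes, and -0.20 against 0.01 under TMM. For ETR-tKO Np5, 3 members were higher and 17 lower, 1 and 45 under TMM, and 5 and 14 in a fit of only the libraries compared, with all genes at 37.7% higher and 9.53% lower (23.0% and 26.8% under TMM). The median there was -0.04 against 0.23 (TMM -0.30 against -0.02). Both comparisons use the same 2i-p5 libraries as N72h and CHp2. With RGd2 2i as the base, 2 were higher and 14 lower in ER-dKO (9 and 7 under TMM) and 3 and 29 in ETR-tKO (5 and 20). Shares of all genes called with that base are not given.

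Ndufs4 was called higher in both knockouts under both scalings and with either 2i base. It read 23.4, 28.5 and 26.9 FPKM in RGd2 2i-p5, 36.9, 37.8 and 34.3 in ER-dKO CHp5 and 39.8, 44.9 and 42.5 in ETR-tKO Np5. Every knockout library lay above every 2i-p5 library, with log2 fold changes of 0.46 ± 0.11 (edgeR, Benjamini-Hochberg adjusted p = 9.78e-04) and 0.69 ± 0.11 (edgeR, Benjamini-Hochberg adjusted p = 2.92e-06). In ETR-tKO cells Atp5mpl, a small proteolipid of ATP synthase, read 20.2, 13.4 and 12.4 against 24.2, 32.5 and 29.4 in 2i-p5 (-0.91 ± 0.19, edgeR, Benjamini-Hochberg adjusted p = 2.29e-04). Uqcrq (-0.77 ± 0.18, edgeR, Benjamini-Hochberg adjusted p = 6.59e-04) and Uqcr10 (-0.51 ± 0.12, edgeR, Benjamini-Hochberg adjusted p = 0.00105) were lower as well, and Ndufb7 was higher (0.31), a call absent under TMM (0.06), without the count filter (0.31) and without ETR-tKO Np5 replicate 13 (0.27).

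In ER-dKO cells Uqcrc2 (0.40) and Ndufs7 (0.33), a core subunit next to the quinone site of complex I, were called higher and Atp5mpl (-0.59), Ndufa6 (-0.38) and Cox5b (-0.37), the zinc-binding subunit of complex IV, lower. None of these 5 was called with 2i as the base and spike-ins, where Ndufs7 stood at -0.05 and Ndufa6 under TMM at 0.13. Calls were lost without ER-dKO CHp5 replicate 10 for Atp5mpl (-0.41), Ndufa6 (-0.29) and Cox5b (-0.31), without 2i-p5 replicate 2 for Atp5mpl (-0.50), without 2i-p5 replicate 1 for Ndufa6 (-0.35), and without ER-dKO CHp5 replicate 11 (0.28) or 2i-p5 replicate 2 (0.30) or 3 (0.29) for Ndufs7. Without the library labelled ER-dKO CHp5 replicate 12 there were 4 higher and 5 lower. Without ER-dKO CHp5 replicate 10 there was 1 lower, without replicate 11 or 2i-p5 replicate 3 there were 3, and without 2i-p5 replicate 2 there were 2, while 3 were higher without 2i-p5 replicate 1 and 2 without replicate 3. In ETR-tKO the 17 lower became 8 without ETR-tKO Np5 replicate 15, 10 without replicate 14 and 9 without 2i-p5 replicate 2, and 1 was higher without replicate 13.

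Isoform use within the complexes shifted in a few genes. Shares are of FPKM, so their size also depends on the gene length by which each count was divided. Cox7a1 made up 17.1% ± 2.82 (SD, n = 3) of the summed FPKM of Cox7a1 and its body-wide partner Cox7a2 in RGd2 2i-p5 and 13.6% ± 2.26 in 2i. It made up 6.73% ± 2.05 in CHp2 and 6.01% ± 0.596 at N72h. No CHp2 or N72h library reached the lowest of 2i-p5 (exact two-sided permutation p = 0.1 each, the smallest 3 against 3 allow). In ER-dKO CHp5 it was 15.7% ± 1.11 and in ETR-tKO Np5 13.7% ± 5.03, each above the RGd2 group in the matching medium without overlap (exact permutation p = 0.1 each). It was highest in Etv5-KO 2i at 21.2% ± 1.55 and Rbpj-KO 2i at 19.4% ± 3.00, where RGd2 2i libraries ran from 11.4% to 15.9% (exact permutation p = 0.1 each).

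The share of Cox6b2 in the sum of Cox6b1 and Cox6b2 was 11.1% ± 0.585 in 2i, 9.39% ± 0.652 at N16h, 16.5% ± 1.19 in 2i-p5 and 20.6% ± 0.655 at N72h, beside 16.2% ± 0.9003 in CHp2 and 8.77% ± 1.65 in Etv5-KO 2i, with no overlap between N72h and 2i-p5 or between N16h and 2i (exact permutation p = 0.1 each). Ndufa4l2 rose from 0.778% ± 0.436 of Ndufa4 and Ndufa4l2 in 2i to 3.62% ± 2.09 in 2i-p5 and 11.8% ± 4.34 at N72h, and was 4.10% ± 1.74 in ETR-tKO Np5. Cox4i2, the lung and low-oxygen form of subunit IV, never exceeded 0.523% of Cox4i1 and Cox4i2 in a library. Cox6a2 (heart and muscle), Cox7b2 and Cox8c (testis) were near 0, with Cox7b2 highest at 1.07 FPKM in an ETR-tKO library.

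**Figure D4:**
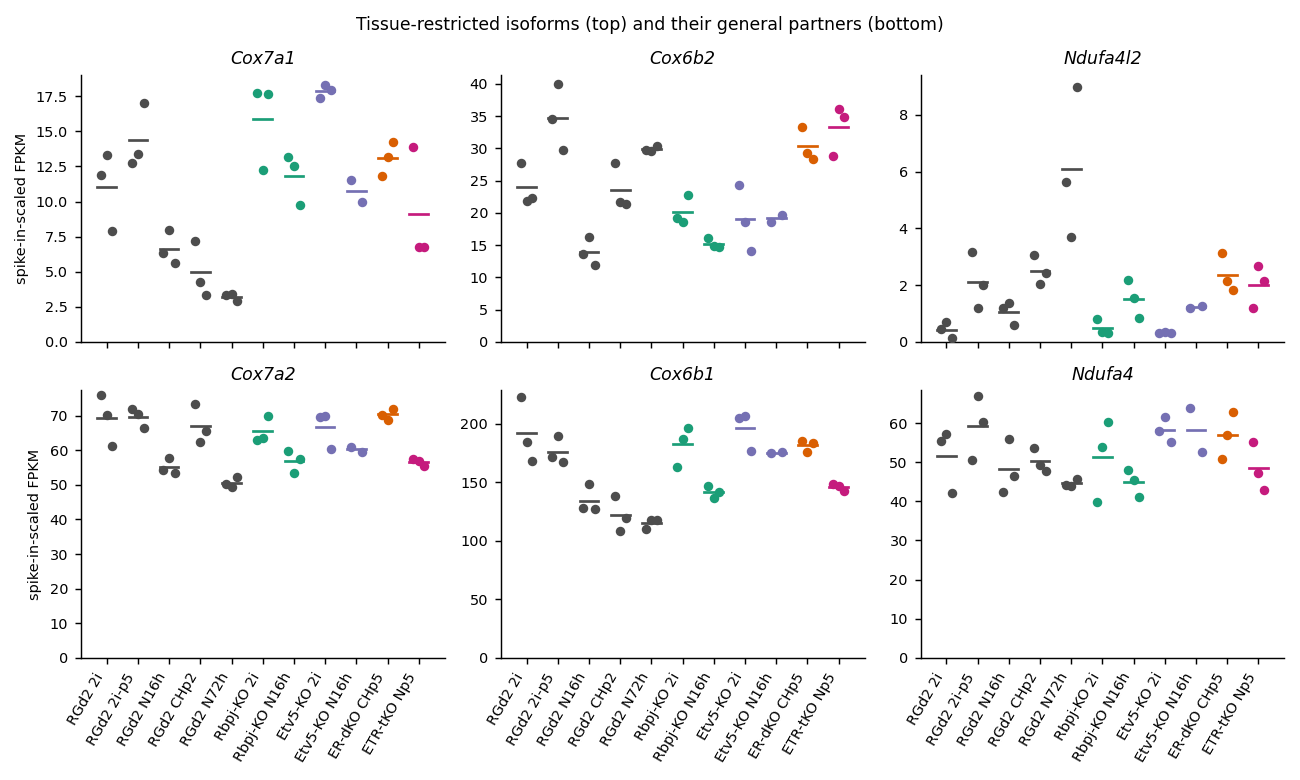
Spike-in-scaled FPKM per library (points; lines are group means) of the tissue-restricted genes Cox7a1, Cox6b2 and Ndufa4l2 above their body-wide partners Cox7a2, Cox6b1 and Ndufa4. Cox7a1 is lowest at N72h (2.95 to 3.38 FPKM) and Ndufa4l2 highest there (3.69 to 8.98).

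Subunit c of ATP synthase, the proton-carrying ring, is made from 3 genes that encode the same mature protein, Atp5g1, Atp5g2 and Atp5g3. Atp5g1 gave 30.3% ± 1.46 (SD, n = 3) of their summed FPKM in RGd2 2i, 28.4% ± 1.03 at N16h, 23.8% ± 0.411 in 2i-p5, 15.4% ± 1.39 in CHp2 and 15.7% ± 1.77 at N72h. Atp5g2 moved the other way, from 45.9% ± 2.98 in 2i and 53.75% ± 2.25 in 2i-p5 to 65.2% ± 1.78 at N72h. CHp2 and N72h did not overlap 2i-p5 for either gene (exact permutation p = 0.1 each). In ER-dKO CHp5 Atp5g1 gave 22.7% ± 0.687 and in ETR-tKO Np5 20.0% ± 0.280, both above every library of the RGd2 group in the matching medium (exact permutation p = 0.1 each). Group means of the single knockouts lay between 28.1% and 30.2%, overlapping RGd2 cells. Of the 50-base words of Atp5g2 38.3% and of Atp5g1 11.1% occur in other transcripts, so part of their reads may be missing from these levels. Counts were divided by a length of 4912 bases for Atp5g1, 1675 for Atp5g2 and 2181 for Atp5g3, which covers all annotated exons. The split between the 3 genes depends on these lengths, which were the same in every library, and is not a measured mRNA ratio.

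In level, Atp5g1 read 32.5, 39.0 and 35.0 FPKM in 2i-p5, 21.7, 18.8 and 21.5 in CHp2 and 19.0, 19.6 and 25.0 at N72h. Both of the latter lay below 2i-p5, with log2 fold changes of -0.79 ± 0.11 (edgeR, Benjamini-Hochberg adjusted p = 9.45e-08) and -0.74 ± 0.11 (edgeR, Benjamini-Hochberg adjusted p = 1.4e-07). Atp5g2 was not called at N72h (0.13 ± 0.098, edgeR, Benjamini-Hochberg adjusted p = 0.271; 0.00 under TMM) and Atp5g3 was called lower (-0.39).

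The partners of the nuclear subunits were read from lists fixed alongside the members. The 13 mRNAs of the mitochondrial genome took 1.61% ± 0.0879 (SD, n = 3) of gene counts in RGd2 2i, 1.55% ± 0.0589 in 2i-p5, 1.32% ± 0.0425 in CHp2, 1.23% ± 0.00861 at N16h and 0.905% ± 0.0666 at N72h, and 1.76% ± 0.0458 in ER-dKO CHp5 and 1.504% ± 0.208 in ETR-tKO Np5. At N72h 8 of 10 tested were called lower and 0 higher under both scalings, and in ETR-tKO Np5 against N72h 9 of 9 were higher under both (median 1.01 with spike-ins, 0.88 under TMM). In ER-dKO CHp5 against CHp2 7 of 10 were higher under both (median 0.48), while in CHp2 against 2i-p5 none was called with spike-ins and 3 were lower under TMM. At N16h 7 of 13 were lower (6 under TMM). The called gene with the largest change in each of these 4 contrasts was mt-Nd6, a complex I subunit, though at N16h it was not called under TMM.

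Among electron carriers and adenine nucleotide exchangers, Slc25a4, which exports ATP from mitochondria, fell by 1.33 at N16h and by 1.07 at N72h on the log2 scale and was higher by 1.12 in ETR-tKO Np5 than at N72h. Of the 10 genes on that list 7 were lower at N16h and 4 at N72h (3 and 5 under TMM) and none was higher. Cycs, the soluble cytochrome c, was called lower in ER-dKO CHp5 than in CHp2 (-0.59, edgeR, Benjamini-Hochberg adjusted p = 0.00277). Among assembly factors at N72h 11 of 43 were higher and 4 lower with spike-ins, although under TMM 7 were higher and 13 lower, with Ndufaf7 (0.998) and Coa7 (-1.11) at the ends. Of 77 mitochondrial ribosomal protein genes 8 were higher and 15 lower at N72h (6 and 34 under TMM), and 33 higher and 4 lower in ETR-tKO Np5 against N72h (26 and 11).

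Of 20 regulators of mitochondrial biogenesis, Esrrb fell by 4.12 and Lin28b was higher by 2.79 at N72h, and in ETR-tKO Np5 against N72h they stood at 4.25 and -3.30. At N16h Myc (1.55) and Ppargc1b (-1.83) were at the ends of that list, on which 3 genes were higher and 6 lower (5 and 3 under TMM). Of 16 genes of pyruvate dehydrogenase and the TCA cycle 8 were lower and 0 higher at N16h (4 and 1 under TMM), and 4 lower and 5 higher at N72h (6 and 4). Glycolysis genes took 1.54% ± 0.0459 of gene counts in RGd2 2i, 1.80% ± 0.107 in 2i-p5, 1.97% ± 0.0492 in CHp2 and 1.93% ± 0.107 at N72h, 1.64% ± 0.0616 in ER-dKO CHp5 and 1.36% ± 0.0908 in ETR-tKO Np5. At N72h 6 of 20 were higher and 4 lower (5 and 5 under TMM), with the glucose transporter Slc2a1 at 2.398 and the lactate dehydrogenase Ldhb at -1.86, and in ETR-tKO Np5 against N72h 5 were higher and 12 lower (5 and 14), with Ldhb at 1.94 and Ldha at -2.65.

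Gene length moved with some of these values. The median length of the members was 1363 bases, counting all annotated exons of a gene and not a single transcript. At N72h the 38 tested members up to that length had a median log2 fold change of -0.32 and the 44 longer ones -0.10, where all genes had -0.09 and 0.11. In 2i-p5 against 2i the medians were 0.00 for the shorter and -0.22 for the longer members. The part of length in the calls was not tested.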

How the data were processed

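RNA was taken from 32 libraries of mouse ES cells, and the values used are whole-number read counts per gene, as deposited by the authors. Per the study's methods, total RNA was depleted of ribosomal RNA with Ribo-Zero, although a label names polyA RNA, and made into strand-specific libraries with ERCC spike-ins added. Reads were trimmed with Trim Galore, aligned with TopHat2 to GRCm38 plus the ERCC sequences, and unique primary alignments were counted with featureCounts against Gencode M14. Versions of these tools are not given in the sources used here. Counting of unique alignments lowers the counts of genes with near-identical copies.

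The counts of 51826 genes were tested in 1 edgeR 4.0.16 quasi-likelihood model (R 4.3.3) over all 32 libraries with a coefficient per group, after filterByExpr (18892 genes, 85 of the 89 members). Libraries were scaled on the 52 ERCC spike-ins detected throughout, by median of ratios, and p-values were Benjamini-Hochberg adjusted over all genes tested. Spike-ins made up 0.991% to 1.52% of reads. Levels are spike-in-scaled counts divided by gene length in kilobases and by the mean scaled library total (FPKM). A call needs an adjusted p under 0.05 and a mean of at least 1 FPKM in either group. Shares were compared by exact permutation tests, where 3 libraries against 3 cannot give p below 0.1 and 2 against 3 cannot give p below 0.2. The fit was tested on simulated data. Gene IDs without a symbol (193) held 0.0259% of counts, and 0 value columns lacked a sample.

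Groups came from the sample labels, which give Etv5-KO N16h as the group short of a library, whereas the study's methods name RGd2 N16h. The members, the gene lists and the tests were chosen with earlier results of these data known. Genes named were, per comparison and direction, the 3 called members of largest change without overlap between groups, the highest member of each complex, tissue-restricted and general isoforms, complex I core subunits, the Sdh genes, Cyc1, Uqcrfs1, the subunit c genes, and the called gene of largest change of each other list described. Alternatives were TMM, DESeq2 1.42.0, no count filter, a fit of only the libraries compared, a clonal-line block, other denominators for shares, and leaving out each library. RGd2 2i as the base and median-of-ratios scaling on gene counts were chosen after seeing the data. Same-numbered replicates do not occur across groups, so the block used the line instead.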

Additional observations from a re-analysis of the deposited data

Results flagged for a closer look

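The response to release from 2i differed between Etv5-KO and RGd2 cells, by the interaction in edgeR, in 24 members with a higher response (29.3% of the 82 tested), where 36.7% of all genes were higher. Under TMM the number was 0, and it was 12 with the clonal line as a replicate block, 10 without the count filter and 3 in a fit of only the libraries compared.

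Reads also fell on rows left out of the members as pseudogenes. Over all libraries Ndufb1-ps held 8339 counts, Atp5l-ps1 18, Atp5l2-ps 9 and Ndufab1-ps 5, each above the 3 counts set as a floor. The source of these reads was not tested.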

How the results depend on the processing

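Counts below are members called higher or lower. TMM gave, for N16h against 2i, 3 higher and 27 lower; CHp2, 43 lower; 2i-p5 against 2i, 28 higher and 1 lower; Rbpj-KO 2i, 4 and 2; Rbpj-KO N16h, 2 and 6; Etv5-KO 2i, 11 and 4; Etv5-KO N16h, 1 and 5; ER-dKO against 2i-p5, 2 and 30; ETR-tKO against 2i-p5, 1 and 45; ER-dKO against CHp2, 6 lower; ETR-tKO against N72h, 13 lower; and 0 for the Etv5-KO response. Median-of-ratios scaling on genes gave, in that order, 3 and 24; 40; 27 and 1; 4 and 2; 2 and 6; 9 and 5; 1 and 5; 2 and 31; 1 and 44; 7; 13; and 0. Fitting only the libraries compared gave 15 lower at N16h, 8 higher at N72h, 6 higher in CHp2, 3 lower in 2i-p5, 0 higher in Rbpj-KO 2i, 10 higher and 1 lower in Rbpj-KO N16h, 1 higher and 2 lower in Etv5-KO 2i, 24 higher in Etv5-KO N16h, 15 higher and 10 lower in ER-dKO and 5 higher in ETR-tKO against 2i-p5, 4 lower in ER-dKO against CHp2 and 3 higher for the Etv5-KO response. DESeq2 gave 4 higher in CHp2, 2 lower in Rbpj-KO 2i, 19 higher in Etv5-KO N16h and 1 higher for the Rbpj-KO response. Without the count filter 1 was higher at N16h, 2 in Rbpj-KO 2i, 3 in Rbpj-KO N16h and 10 for the Etv5-KO response. The replicate block by clonal line gave 1 higher at N16h and 12 for the Etv5-KO response and moved no other count past 1.5 times. With RGd2 2i as the base, 35 were lower in CHp2, 2 higher and 14 lower in ER-dKO and 29 lower in ETR-tKO, and under TMM 13 were higher at N72h, 6 in CHp2, 9 in ER-dKO and 5 in ETR-tKO. Shares of all genes with that base are not given.

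Leaving out 1 library at a time gave 0 to 1 higher and 32 to 57 lower at N16h, 3 to 6 higher and 24 to 32 lower at N72h, 1 to 5 higher and 15 to 19 lower in CHp2, 4 to 7 higher and 11 to 35 lower in 2i-p5, 0 to 3 higher and 0 to 6 lower in Rbpj-KO 2i, 1 to 4 higher and 0 to 1 lower in Rbpj-KO N16h, 0 to 2 higher and 6 to 29 lower in Etv5-KO 2i, 1 to 13 higher in Etv5-KO N16h, 2 to 5 higher and 1 to 5 lower in ER-dKO and 1 to 4 higher and 8 to 18 lower in ETR-tKO against 2i-p5, 12 to 21 higher and 0 to 2 lower in ER-dKO against CHp2, 21 to 27 higher and 6 to 9 lower in ETR-tKO against N72h, 0 to 5 for the Rbpj-KO response and 6 to 42 for the Etv5-KO response. Single genes changed sign with 2i as the base: Ndufs7 in ER-dKO (-0.048), Atp5f1 in CHp2 (-0.093), and under TMM Ndufa6 in ER-dKO (0.13) and Ndufb4c in CHp2 (0.13) and at N72h (0.011). Of the named calls, 46 held and 11 were lost under TMM, and 55 held and 2 were lost under DESeq2. Of the named calls read against 2i-p5, 11 held, 9 were lost and 2 changed sign with RGd2 2i as the base. With that base under TMM 13 held, 6 were lost and 3 changed sign. Without single libraries the difference in share of counts, in percentage points, ran from -0.0376 to 0.0219 in Rbpj-KO 2i, -0.0438 to 0.0028 in Rbpj-KO N16h, -0.0053 to 0.0180 in Etv5-KO 2i and -0.0478 to 0.0223 in Etv5-KO N16h, and so changed sign in each. The cause of these changes was not tested. Depth limits low members most in RGd2 2i replicate 33.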

Other observations

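Cytosolic ribosomal protein genes took a share of gene counts of 5.09% in RGd2 2i and 6.72% in RGd2 2i-p5, and of the 80 tested in that contrast 14 were called higher and 1 lower with spike-ins and 70 higher and 0 lower under TMM (edgeR). At N72h 14 of 80 were lower and 0 higher with spike-ins, and 42 lower under TMM.

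Mesendoderm markers summed to between 70.5 and 74.2 FPKM in CHp2, where T alone had a mean of 66.8. Neural markers summed to between 44.2 and 50.3 at N72h, where Nes had a mean of 42.1, Sox1 of 0.376 and Pax6 of 0.109. The neural sum thus came almost wholly from Nes. Naive markers summed to between 51.9 and 56 at N72h, and trophoblast markers to at most 8.43 in any library. Summed Pou5f1 and Sox2 ran from 335 FPKM in CHp2 to 696 in Etv5-KO N16h.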
